A study of Arabidopsis thaliana with 6 samples.

Results

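RR16 (AT2G40670, chromosome 2, also called ARR16) and ARR15 (AT1G74890, chromosome 1) are type-A response regulator genes of Arabidopsis thaliana. They were taken by gene name from the annotation of the array, which gave 1 probe set for each, so they are 2 of 13350 gene names and 2 of 22746 probe sets tested. A probe set is the group of short probes that reports 1 transcript. Expression was measured on 6 Affymetrix ATH1 arrays in 3 groups of 2 arrays, all described as 3 weeks old. The groups were wild-type Col-0 kept in hydrocarbon-free air, Col-0 given ethylene gas at 10 ppm, and the line amiR-ETP1/2, which was derived from Col-0 and carries an artificial microRNA against the F-box genes ETP1 and ETP2. The exposure is stated as 4 h in the sample characteristics and as 24 h in the array titles. No organ is named, and no gas treatment is given for amiR-ETP1/2. The sources used here name neither the promoter of the artificial microRNA nor the number of transgenic lines.

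Cytokinin is perceived by membrane histidine kinases, and the signal passes as a phosphate group through phosphotransfer proteins to nuclear type-B response regulators, which are transcription factors. Type-A genes are among the early targets of the type-B factors. Their products are small receiver-domain proteins without a DNA-binding domain, and they dampen cytokinin signalling, which makes them both a readout and a brake of the pathway. ARR15 and its close relative ARR7 are known from the shoot meristem, where WUSCHEL represses them, from the embryonic root and from the response to cold. RR16 is known from the root and, with ARR17, from the stomatal lineage of the leaf. Ethylene meets this family through EIN3, the main transcription factor of the ethylene response, which has been reported to bind the promoters of ARR5, ARR7 and ARR15. Neither promoter binding nor cytokinin content was measured here.

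The ethylene arrays stood apart from the other 4 over the whole array, with a Pearson r of 0.791 to 0.810 against them across probe sets (no independent replicates), beside 0.975 to 0.981 between air and amiR-ETP1/2 arrays. Signal at the 3' end of the actin control exceeded that in its middle by 2.02 to 2.17 log2 units on the ethylene arrays and by 0.322 to 0.894 on the other 4. For GAPDH the excess of the 3' over the 5' end was 1.02 to 1.76 with ethylene, 0.765 to 1.76 in air and 0.519 to 0.661 in amiR-ETP1/2. Of the leaf markers, 2 of 4 had a probe set named for them in the annotation used. The Rubisco activase RCA read 9.12 to 9.16 with ethylene and 13.08 to 13.31 on the other arrays. The antenna gene LHCB4.2 read 8.81 to 8.85 and 12.05 to 12.34. Both root markers, the expansin genes EXPA7 (3.89 to 5.48 over the 6 arrays) and EXPA18 (3.76 to 4.35), were measured. In bulk RNA, a change in the share of cells that express a gene and a change in RNA per cell cannot be told apart. The part of RNA quality or of tissue makeup in the results that follow was not tested. For ETP2, which the artificial microRNA targets, the air arrays read 4.06 and 4.14 and those of amiR-ETP1/2 4.23 and 4.47 on the log2 scale. The difference was 0.25 (SE 0.14, limma adjusted p = 0.448), so lower ETP2 was not detected in the line on these arrays. These levels are near or below the array medians of 4.39 to 4.46, where a fall may not show. ETP1 was not analysed here, so the values do not decide whether the line lowers its targets.

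With ethylene RR16 rose and ARR15 fell. On the log2 scale RR16 stood at 3.96 and 4.33 on the air arrays and at 7.89 and 7.80 on the ethylene arrays. Both ethylene arrays lay above both air arrays, and the smallest distance between an ethylene and an air array was 3.47 log2 units. The mean went from 4.15 ± 0.26 to 7.84 ± 0.07 (SD, n = 2), a log2 difference of 3.70 with a standard error (SE) of 0.15. This is a 13.0-fold rise with a 95% interval of 10.1-fold to 16.7-fold (limma, Benjamini-Hochberg adjusted p = 3.24e-06). Among all 4291 probe sets called higher with ethylene, the rise of RR16 was the 195th in size.

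ARR15 had levels of 4.24 and 4.15 in air and of 3.68 and 3.65 with ethylene. Here the ethylene arrays were the lower ones, the groups did not overlap, and the smallest distance between them was 0.48 log2 units. The mean moved from 4.19 ± 0.06 to 3.66 ± 0.02 (SD, n = 2), so that ARR15 fell by 0.53 on the log2 scale (SE 0.12, limma adjusted p = 0.0115). This is a 1.44-fold difference with a 95% interval of 1.18-fold to 1.76-fold, and 3594 of the 3894 called falls were at least as large. Both members were therefore called, where 36.0% of all probe sets were called in this contrast, 18.9% higher and 17.1% lower. The groups did not overlap for either member, which held for 66.4% of all probe sets. The call of ARR15 was lost without ethylene array 1 (adjusted p = 0.0581), without ethylene array 2 (adjusted p = 0.0703) or without air array 1 (adjusted p = 0.0526), at differences of -0.54, -0.52 and -0.49, and the largest adjusted p of RR16 without any 1 array was 0.000353.

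**Figure D1:**
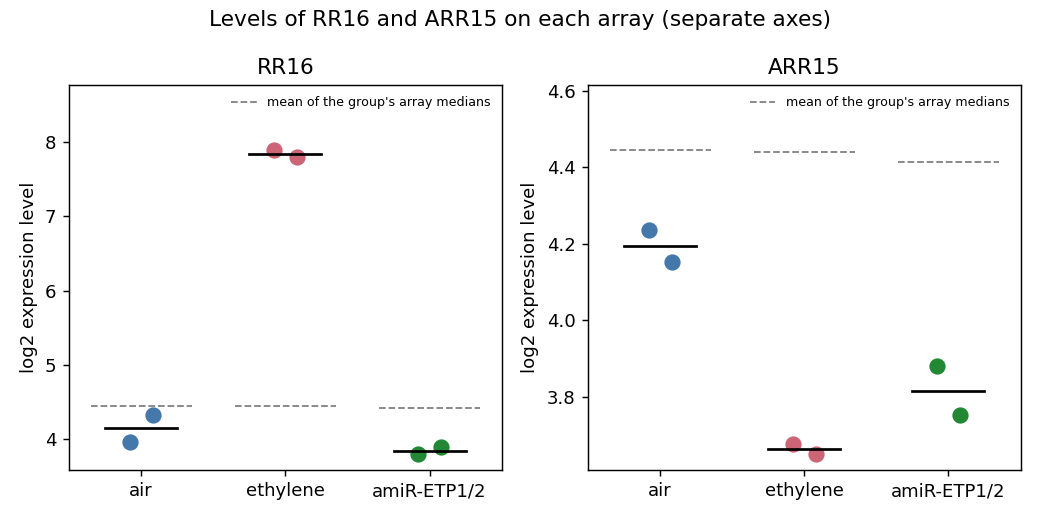
Log2 expression level of RR16 (left) and ARR15 (right) on each of the 6 arrays, with a separate vertical axis for each gene. Points are arrays, black bars are the means of 2 arrays, and dashed lines are the mean of the medians of the same arrays. RR16 stands far above the array median only on the ethylene arrays, at 7.89 and 7.80, and ARR15 lies below the median on all 6 arrays.

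Both genes had a low signal outside the ethylene response of RR16. RR16 lay between percentiles 26.5 and 46.6 of all probe sets on the 4 arrays without ethylene, and at percentiles 90.2 and 89.2 on the ethylene arrays. ARR15 lay between percentiles 40.4 and 44.7 in air, at 17.6 and 16.5 with ethylene and at 31.6 and 25.1 in amiR-ETP1/2. No measure of signal over background is given for these arrays. The folds are thus ratios of the deposited values and no measure of transcript number, for RR16 in air and for ARR15 on all 6 arrays in particular.

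In amiR-ETP1/2 neither gene passed the test against air, and both arrays of the line lay below both air arrays for each gene. RR16 had log2 levels of 3.79 and 3.90 in amiR-ETP1/2, beside the 3.96 and 4.33 in air. The lower air array was only 0.07 log2 units above the higher amiR-ETP1/2 array. The mean of the line was 3.84 ± 0.08 (SD, n = 2) which differed from that of air by -0.30 (SE 0.15) with a 95% interval from -0.67 to 0.06 (limma adjusted p = 0.416). This interval excludes a rise of the size that ethylene gave, whose own interval starts at 3.33. The difference of RR16 was -0.48 without air array 1 and -0.12 without air array 2.

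ARR15 had levels of 3.88 and 3.75 in amiR-ETP1/2, which lie between those in air and those with ethylene. The mean was 3.82 ± 0.09 (SD, n = 2), which differed from that of air by -0.38 (SE 0.12), with a 95% interval from -0.67 to -0.09 that is not adjusted for the number of probe sets. The p was 0.0165 unadjusted and 0.213 adjusted (limma), so the difference was not called. From the 4 air and amiR-ETP1/2 arrays alone, without the ethylene arrays that stood apart, the adjusted p was 0.356 for ARR15 and 0.534 for RR16 at the same differences. In this contrast 0.620% of all probe sets were called and 0 of the 2 members. The unadjusted p was under 0.05 for 1 of the 2, ARR15, and for 3446 of 22746 probe sets. Groups that did not overlap, as for both members, were found for 44.5% of all probe sets.

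The direct comparison of amiR-ETP1/2 with ethylene-treated Col-0 separated the genes. RR16 was lower in amiR-ETP1/2 by a log2 difference of -4.00 (SE 0.15, limma adjusted p = 2.29e-06), which is 16.0-fold with a 95% interval of 12.4-fold to 20.6-fold. Of the 4588 probe sets called lower in this contrast, RR16 was the 157th in size. ARR15 differed by 0.15 (SE 0.12, limma adjusted p = 0.387), with a 95% interval from -0.13 to 0.44. The groups did not overlap for either gene, by 3.90 log2 units for RR16 and by 0.07 for ARR15, and that held for 71.0% of all probe sets. The share of probe sets called was 38.4%, and 1 of the 2 members was among them. The order of the RR16 levels was thus ethylene above air and amiR-ETP1/2, with no call between the latter pair. That of ARR15 was air, amiR-ETP1/2 and ethylene, where only air and ethylene differed by the test. The smallest difference called was 0.79 in size for amiR-ETP1/2 against air and 0.36 for ethylene against air. The lack of a call in amiR-ETP1/2 therefore does not show a smaller change of ARR15 there. The contrasts with air share the 2 air arrays, and those with ethylene share the 2 ethylene arrays.

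**Figure D2:**
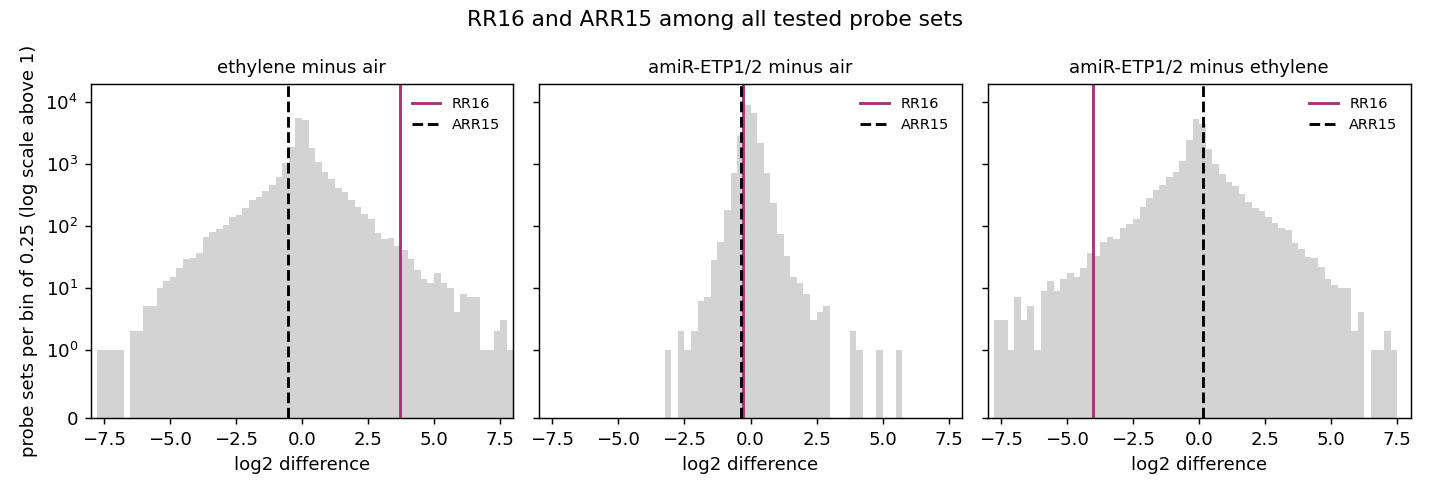
Log2 differences of all 22746 probe sets in the 3 contrasts, as counts per bin on an axis that is logarithmic above 1, with vertical lines for RR16 (solid) and ARR15 (dashed). RR16 lies in the right tail of the ethylene contrast at 3.70 and in the left tail of amiR-ETP1/2 minus ethylene at -4.00, while ARR15 stays within 0.53 of 0 in each.

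The rest of the cytokinin pathway was covered thinly by the annotation used. It named 1 gene for 13513 of the 22746 probe sets and several genes for 503. Measured genes are those with a probe set named for them alone, so other genes may still have probe sets on the array. A list of 88 genes in 11 groups was written for receptors, phosphotransfer proteins, response regulators, synthesis, breakdown, transport and outputs, and 9 of these genes had a named probe set, RR16 and ARR15 included. The other 8 of 10 type-A genes were not analysed here, and neither were the receptor, phosphotransfer, synthesis, transport and response factor groups. The 7 other measured genes were the type-B family members RR18, RR19 and RR23, the type-C regulator RR22, and the glucosyltransferase genes UGT76C1, UGT76C2 and UGT73C1, whose products attach glucose to cytokinins.

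With ethylene 1 of these 7 genes was called higher and 0 lower, with a median log2 difference of 0.14 beside -0.0028 over all probe sets. In this contrast 18.9% of all probe sets were called higher and 17.1% lower, so the count gives no sign of a change particular to these genes. UGT76C2, whose enzyme inactivates cytokinin bases by N-glucosylation, read 5.29 and 5.19 on the air arrays and 5.67 and 5.65 on the ethylene arrays (log2 levels). Both ethylene arrays were the higher ones, and the gene rose 1.34-fold (log2 difference 0.43, SE 0.12, limma adjusted p = 0.0293). Its sister gene UGT76C1 had levels of 4.56 and 4.36 in air and of 4.91 and 4.89 with ethylene. The direction was that of UGT76C2 and the difference was 0.44 (SE 0.15, limma adjusted p = 0.0514), so it was not called. UGT73C1 differed by -0.11 (adjusted p = 0.565). The 4 response regulators of types B and C had differences between -0.09 for RR23 and 0.17 for RR18, and the smallest adjusted p among them was 0.323. The call of UGT76C2 was lost without either air array, without either ethylene array, after a filter on the 40% of lowest level, and under the trend and robust options of limma; in each of these 0 of the 7 genes were called.

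In amiR-ETP1/2 against air 0 of the 7 genes were called, where 0.620% of all probe sets were called. The smallest difference called in this contrast was 0.79 in size, beside 0.36 with ethylene against air. Their median was -0.16 beside -0.03 over all probe sets. At an unadjusted p under 0.05, which 3446 of 22746 probe sets reached, UGT76C2 was lower and RR19 higher. The arrays of the line and of air did not overlap for 44.5% of all probe sets. These counts are therefore no result about the 7 genes. UGT76C2 had levels of 4.86 and 4.75 in the line, below both air arrays, and a difference of -0.43 (SE 0.12, limma adjusted p = 0.174). RR19 had levels of 3.78 and 3.96 in air and a mean of 4.30 ± 0.14 (SD, n = 2) in amiR-ETP1/2, with both arrays of the line above both air arrays and a difference of 0.44 (SE 0.13, limma adjusted p = 0.198). Against ethylene, amiR-ETP1/2 had lower UGT76C2 by -0.86 (SE 0.12, limma adjusted p = 0.00103) and lower UGT76C1 by -0.60 (SE 0.15, limma adjusted p = 0.0142), and the other 5 were not called. These 2 of 7 stand beside 38.4% of all probe sets called in that contrast. UGT76C2 thus had its highest level with ethylene and its lowest in amiR-ETP1/2.

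**Figure D3:**
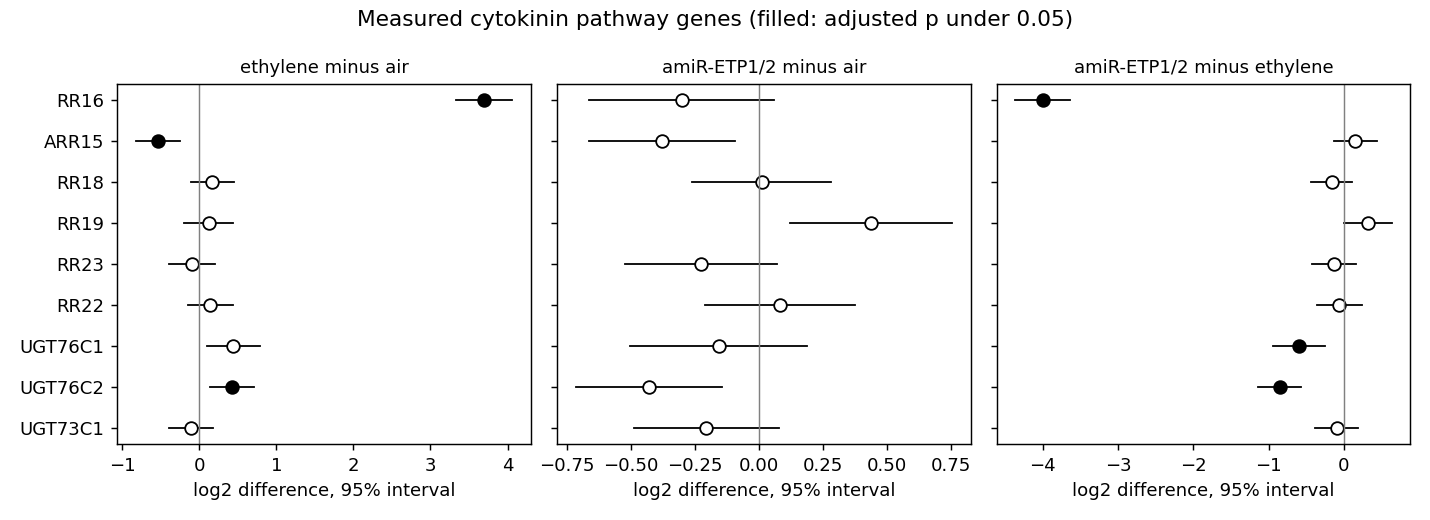
Log2 differences (points) with 95% intervals (lines) of the 9 measured cytokinin pathway genes in the 3 contrasts, filled where the adjusted p is under 0.05. The interval of RR16 lies far from 0 in both contrasts that hold the ethylene arrays, and the other 8 genes stay within 0.86 of 0.

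The log2 level of EIN3 was 8.16 and 7.62 in air, against 10.13 and 10.26 on the ethylene arrays and 7.97 and 8.04 on those of amiR-ETP1/2. It rose 4.94-fold with ethylene (log2 difference 2.31, SE 0.19, limma adjusted p = 5.97e-05), where 36.0% of all probe sets were called. In amiR-ETP1/2 the level of EIN3 differed from air by 0.11 (limma adjusted p = 0.84). These are RNA levels, and a link of EIN3 to the rise of RR16 or the fall of ARR15 was not tested.

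The genes with the profile most like each member were found among 13512 other single-gene probe sets by the root mean square difference of the log2 levels over the 6 arrays, after each gene was centred on its own mean. With 2 arrays in each of 3 groups this likeness rests mainly on the group differences. Closest to RR16 were the plastid gene petL, of a small subunit of the cytochrome b6f complex (root mean square 0.131), AT4G25580 (0.135), AT3G15440 (0.141), AT1G27300 (0.172) and AT2G15960 (0.182). Their differences with ethylene ran from 3.49 to 3.96 and those in amiR-ETP1/2 from -0.43 to -0.07. The largest difference between ethylene and air among them belonged to petL, at mean levels of 9.59 and 5.64. Closest to ARR15 were AT3G05260 (0.0493), AT5G19500 (0.0530), AT5G65220 (0.0542), AT1G17390 (0.0575) and AT1G19740 (0.0579). These fell with ethylene by -0.46 to -0.61 and had differences of -0.24 to -0.41 in amiR-ETP1/2, none of which was called.

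**Figure D4:**
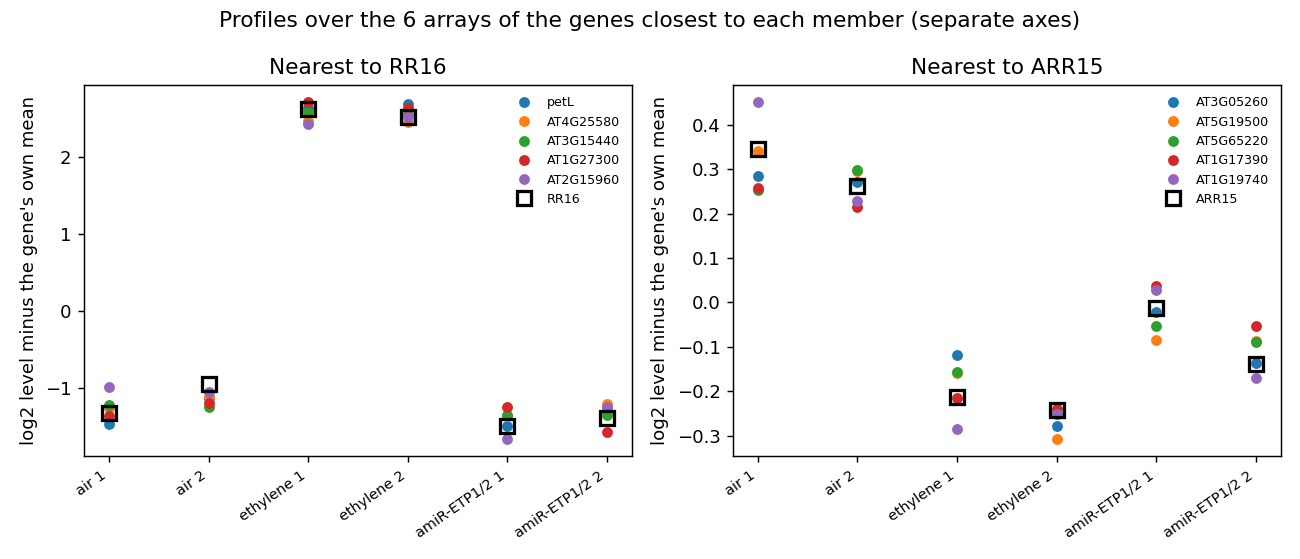
Log2 level minus the gene's own mean on each array for RR16 (left, black squares) and ARR15 (right, black squares) with the 5 genes closest to each by root mean square difference, on separate vertical axes. The RR16 panel splits into ethylene arrays and the other 4. In the ARR15 panel the amiR-ETP1/2 arrays of each gene lie between its air and ethylene arrays, except for AT3G05260. Its amiR-ETP1/2 array 2 (log2 level 3.69) lies below its ethylene array 1 (3.71).

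The nearest measured genes on the chromosome, those with a probe set named for them alone, were set beside each member. Genes without such a probe set were passed over. Of the 10 nearest measured genes around RR16, 5 on each side, 1 was called higher with ethylene (AT2G40640, 0.61) and 1 lower (AT2G40630, -0.49), and all 10 lay between -0.49 and 0.61 beside the 3.70 of RR16. Around ARR15, 3 of 10 were called higher and 0 lower, AT1G74860 (1.71), AT1G74840 (0.85) and the aldehyde dehydrogenase gene ALDH10A8 (0.59), and the lowest difference was -0.42 for AT1G74940. With 36.0% of all probe sets called in this contrast, the counts around both members are no result about these regions. In amiR-ETP1/2 against air, where 0.620% of all probe sets were called, 0 of the 10 genes around either member were called. Their differences ran from -0.38 to 0.01 around RR16 and from -0.24 to 0.56 around ARR15. The highest around ARR15 was that of ORA47, a transcription factor gene of the jasmonate pathway.

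**Figure D5:**
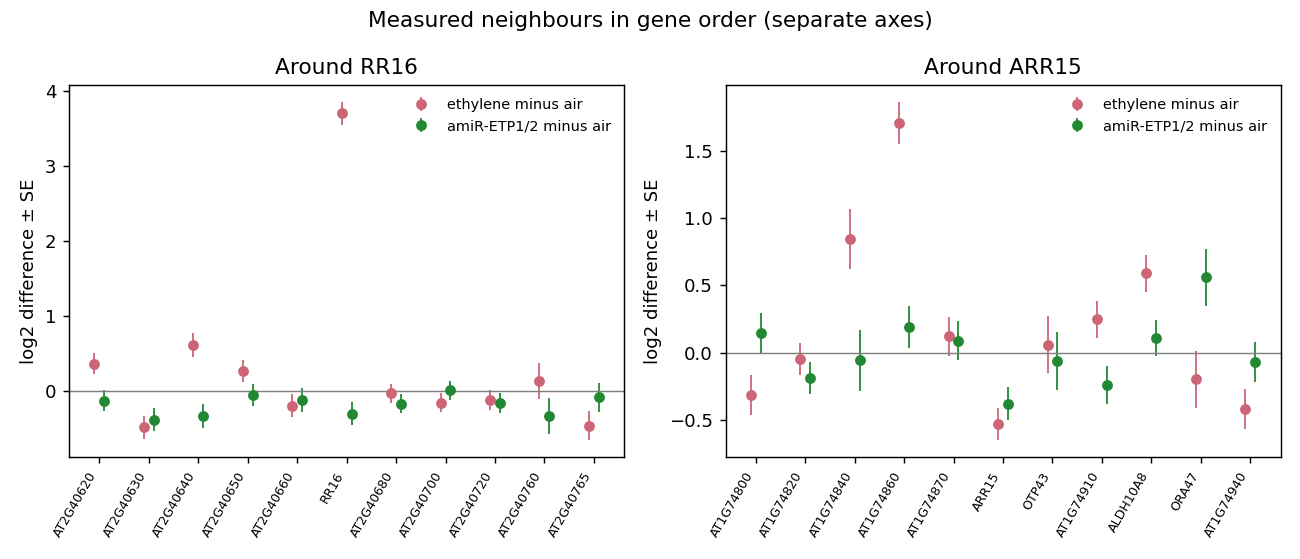
Log2 difference from air, with SE bars, of RR16 (left) and ARR15 (right), each at the centre, and of the 5 nearest measured genes on each side in chromosome order, for ethylene and for amiR-ETP1/2, on separate vertical axes. RR16 at 3.70 stands above its 10 neighbours, the highest of which is at 0.61, and ARR15 at -0.53 has neighbours up to 1.71.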

How the data were processed

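The authors deposited 1 log2 value per probe set and array. The log2 scale was read from the range of about 3 to 14 with no statement of it in the labels. Per the submitters' processing notes limma was used. The sources used here do not give how background was corrected and probes were summarised and normalized. The values were used as deposited, with array medians of 4.39 to 4.46. The number of arrays limits the precision.

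The table holds 22753 probe sets, of which 7 controls were set aside and 22746 tested without a filter. Group means were modelled over the 6 arrays with limma 3.58.1 (R 4.3.3) and empirical Bayes (3 residual and 4.15 prior degrees of freedom). Tests were two-sided, and a call is an adjusted p under 0.05 (Benjamini-Hochberg, over the whole table in each contrast). The fit was tested on simulated data. An exact permutation test of 2 against 2 arrays cannot give a p below 0.333 and was not used.

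Genes were named from the array annotation (13513 probe sets with 1 gene, 503 with several), matched to TAIR10.1 for symbols and gene order. The members and lists were chosen with earlier results of these data known. Named are the members, all measured list genes, the neighbours, and the 5 genes most like each member by root mean square difference and by Pearson r (for r, at a mean level above 6). The design text calls the replicates biological. Replicate numbers did not pair the arrays (r of same-numbered deviations from -0.17 to 0.07). Alternatives were quantile normalization, median centring, a filter that drops the lowest 40% by mean, a replicate block, the 4 compared arrays alone, trend and robust options, and leaving out each array.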

Additional observations from a re-analysis of the deposited data

How the results depend on the processing

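The rise of RR16 with ethylene and its lower level in amiR-ETP1/2 than with ethylene were called under all 12 alternatives run, at differences of 3.52 to 3.88 and of -4.05 to -3.95. Of these, the setting without the lowest 40% of probe sets adds no support. RR16 is at percentiles 26.5 to 46.6 on the arrays without ethylene, and its overall mean rests on the ethylene arrays. In each contrast, leaving out either array of the group not compared gives the same fit as the 4 compared arrays alone. Those settings are therefore no separate support. For amiR-ETP1/2 minus air neither gene was called under any alternative run (RR16 -0.48 to -0.12, ARR15 -0.44 to -0.32). ARR15 has a mean at percentile 29.4, so the setting without the lowest 40% of probe sets gives no value for it. Its fall with ethylene was called under 8 of 11 alternatives. Among these, leaving out either amiR-ETP1/2 array again repeats the fit of the 4 compared arrays. Leaving out 1 of the 4 compared arrays gave -0.57 to -0.49, and the call was lost in 3 of these 4 fits. ARR15 in amiR-ETP1/2 minus ethylene was not called under any of 11 (0.09 to 0.22). With the replicate block the difference of RR16 with ethylene was 3.70 (adjusted p = 2.98e-05) and that of ARR15 was -0.53 (adjusted p = 0.0218), and the block changed no call of either gene.

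Of the 7 other cytokinin genes, the number called with ethylene was 1, and that call was lost without any 1 of the compared arrays. The number was 2 after median centring and from the 4 compared arrays. With the lowest 40% left out or with trend and robust options it was 0. In amiR-ETP1/2 minus ethylene it was 2, and 1 to 2 without 1 array. Over all probe sets, 141 were called in amiR-ETP1/2 minus air, against 259 with quantile normalization, 213 with median centring, 232 with the lowest 40% left out, 42 with the replicate block, 233 with trend and robust options, 9 from the 4 compared arrays and 9 to 252 without 1 array. The causes were not tested. Each member has 1 probe set, so the alternative of its other probe sets could not be run. With 2 arrays per group and signals of ARR15 below the array median throughout, differences of its size are at the limit of these data.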

Other observations

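Likeness by Pearson r over the 6 arrays, which ignores the size of a change, named other genes among 2839 single-gene probe sets with a mean level above 6. Closest to RR16 were AT5G44250, CCL, AT5G58375, AT3G11780 and AT5G17380, with r from 0.9988 to 0.9999, and their rises with ethylene ran from 0.94 log2 units for CCL, a gene that starts from a mean level of 11.24 in air, to 3.29 for AT3G11780. Closest to ARR15 were AT1G74640, AT1G06830, AT1G19740, AT3G59300 and AT5G44020, with r from 0.976 to 0.991. Of these, AT1G06830, a glutaredoxin gene, and AT5G44020 fell in both contrasts with air, which share the air arrays, by -2.34 and -1.99 with ethylene (limma adjusted p = 2.86e-05 and 1.41e-05) and by -1.84 and -1.22 in amiR-ETP1/2 (adjusted p = 0.00993 and 0.0122). AT1G19740 is the 1 gene that both measures of likeness named for ARR15. These r values describe 3 groups of 2 arrays each and are given with no test. The genes were chosen for their likeness over these same 6 arrays. The directions of their differences follow from that choice and are no separate support.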
